A study of Mus musculus with 17 samples.

Results

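The RNA of 6 whole testes of wild-type (WT) mice, 3 collected at E15.5 (E, embryonic day) and 3 at E13.5, was compared, to ask which transcripts change in a normal fetal testis between these ages. They are 6 of the 17 testis libraries of the series, chosen by the age and genotype in their titles, and their RNA was sequenced in bulk from paired ends after treatment with DNase. The series also holds 3 KO testes at E15.5, 2 at E13.5, and WT and KO testes from the day of birth (postnatal day 0, PND 0). All mice came from a C57/Bl6 line bred from heterozygotes for a mutation of Inha that removes the coding sequence of the mature inhibin alpha subunit. The WT testes carry no mutated allele by their titles, and no treatment or other allele is given for them. Embryos were aged from the day of the vaginal plug and from limb development, and the testis was dissected away from the mesonephros. The titles of the 6 WT libraries hold 6 different numbers. One E15.5 WT and one E15.5 KO title share a number, and the labels do not say what it marks or which animals shared a litter, so p-values here measure the spread among these testes.

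In the mouse, this interval follows sex determination. Sertoli cells have enclosed the germ cells in cords, fetal Leydig cells in the interstitium make androgens from cholesterol, and peritubular myoid cells form around the cords. Male germ cells, called gonocytes at this stage, are known to leave the mitotic cycle, to shut down the pluripotency network that they carried from primordial germ cells, and to begin new DNA methylation of the genome under the guidance of PIWI-interacting RNAs (piRNAs), which target transposons.

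The 6 libraries held 21020002 to 22042380 counts, so that 1 CPM, the count scaled to the total of its library, stands for about 21 to 22 counts. On the first principal component of log2 CPM, which held 71.6% of the variance, the E15.5 WT libraries lay at 41.8, 42.1 and 43.5 and the E13.5 WT libraries at -47.1, -58 and -22.4. Replicate 3 of the E13.5 WT group thus stood apart from the other 2 on the side of E15.5, and results are given with and without it where it matters. The reason was not tested. Transcripts of fetal liver were seen in E15.5 WT replicate 1, with 43.5 CPM of Alb against at most 2.18 CPM in the other 5 libraries, and their part in other results was not tested. The genotype field of the 3 E15.5 WT samples reads KO while their titles read WT. Inha stood at 648, 552 and 626 CPM at E15.5 and 441, 360.2 and 445 CPM at E13.5, so its transcript is present in all 6. On the scale of all 17 libraries it had 641, 548 and 624 CPM in these E15.5 WT testes, against 0.499, 3.19 and 0.268 CPM in the testes titled E15.5 KO. Genes that mark the testis were plentiful, among them the Sertoli hormone gene Amh with 1427, 1397 and 1435 CPM at E15.5 and 1852, 1664 and 1595 CPM at E13.5, while the ovarian gene Foxl2 had 0.663, 0.417 and 0.683 CPM at E15.5 and 0.331, 0.686 and 0.576 CPM at E13.5.

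At E15.5, 1990 of 17084 genes tested were changed relative to E13.5 (11.6%; edgeR's quasi-likelihood test at adjusted p below 0.05, with at least a 1.5-fold difference). Of these, 1421 were higher (8.32% of all tested) and 569 were lower (3.33%), and the larger changes were also mostly rises, with 385 genes higher and 87 lower by 4-fold or more. The median log2 fold change over all genes tested was -0.00326. In 43.7% of all genes the 3 values of one age did not overlap the 3 of the other, with 21.7% higher and 22% lower, so a lack of overlap alone is common here. Without E13.5 WT replicate 3, 2585 genes were called, 1857 higher and 728 lower. Below, a value in parentheses after a gene is its log2 fold change of E15.5 over E13.5, and genes said to rise or fall are called ones. The gene lists were chosen with earlier results of these data known, so their shares beside those of all genes are description, not a test.

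**Figure D1:**
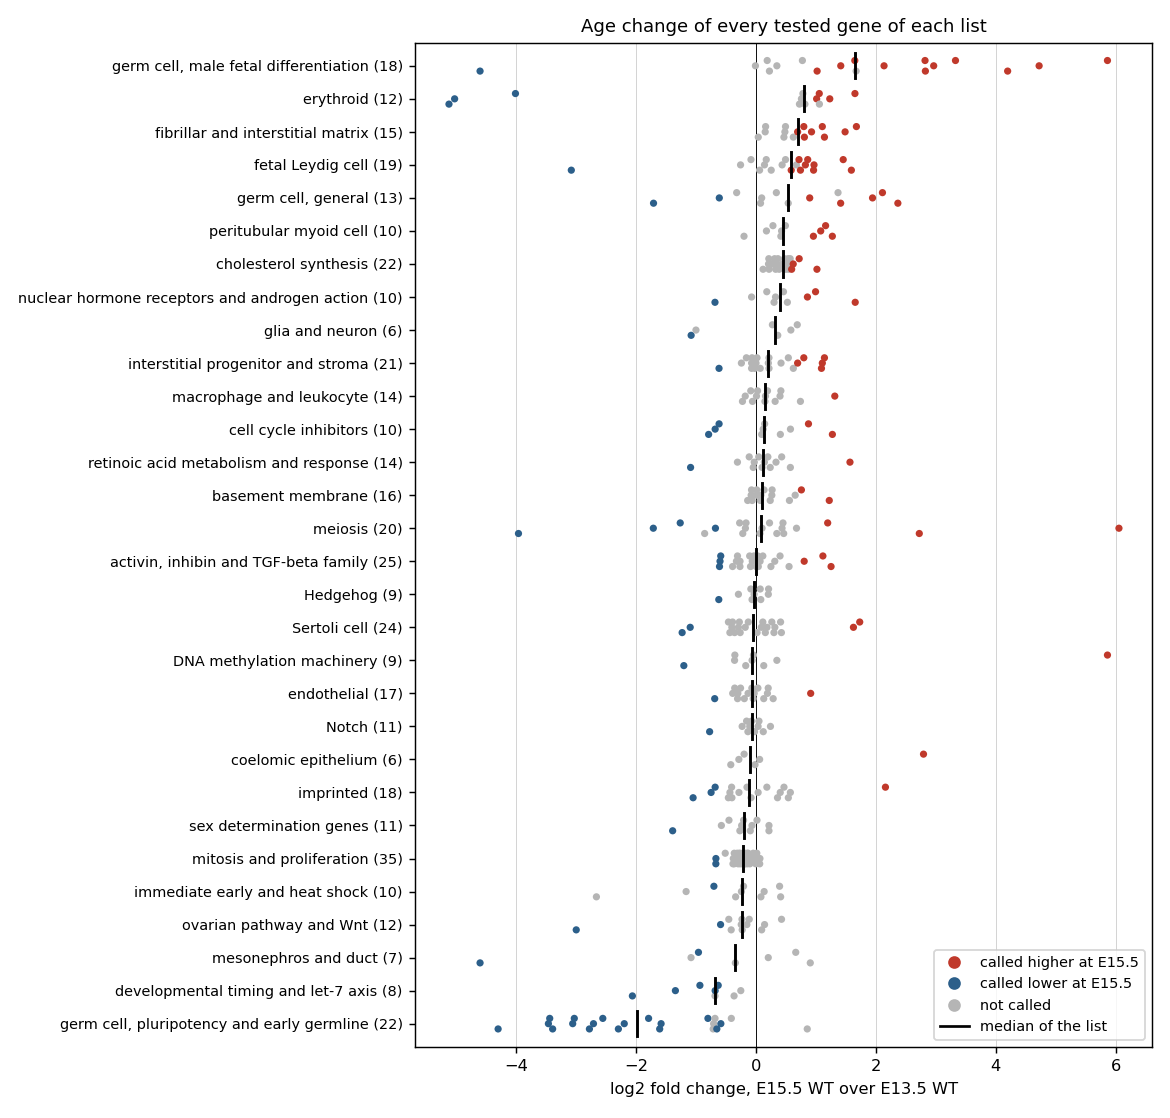
Log2 fold change of E15.5 WT over E13.5 WT (x axis) for every tested gene of 30 gene lists (rows, with the number tested), with red points for genes called higher, blue for genes called lower, grey for genes not called, and a black bar at the median of each list. The male germ cell list has its median at 1.66 and the pluripotency list at -1.99, while most lists lie near 0.

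Most genes of male germ cell differentiation rose. Of the 18 genes tested of this list, 11 were higher (61.1%, against 8.32% of all genes) and 1, the homeobox gene Lhx1, was lower (5.56%, against 3.33%), with a median log2 fold change of 1.66. Without E13.5 WT replicate 3, 15 were higher and the median was 2.5, and with a robust dispersion 7 were higher. The steepest rise was in Dnmt3l, whose product stimulates the enzymes that set new DNA methylation in fetal male germ cells (ENSMUSG00000000730, chromosome 10 of GRCm38 from 78041947 to 78063622). It had 47.1, 54.5 and 47.4 CPM in E15.5 WT testes, against 0.0947, 0.0914 and 2.4 CPM in E13.5 WT testes (log2 fold change 5.86, SE 0.55, adjusted p = 6.8e-04). All 3 older testes lay far above the younger ones. Among the E13.5 testes replicate 3 alone exceeded 1 CPM, the other 2 had 2 counts each, and without it the log2 fold change was 8.98.

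Genes of the nuclear arm of the piRNA pathway also rose. Piwil4 encodes MIWI2, the PIWI protein that enters the gonocyte nucleus, and had 96.3, 111 and 91.7 CPM in E15.5 WT testes, against 2.08, 2.29 and 12 CPM in E13.5 WT testes (log2 fold change 4.2, SE 0.5, adjusted p = 0.0013). Spocd1, whose product links MIWI2 to the DNA methylation machinery, was among the 15 largest rises of the whole table with 70.8, 70.4 and 75.8 CPM in E15.5 WT testes, against 0.615, 0.366 and 2.16 CPM in E13.5 WT testes (log2 fold change 6.12, SE 0.33, adjusted p = 7.2e-05). Tdrd9, a helicase with a tudor domain that works with MIWI2, had 86.3, 111 and 111 CPM in E15.5 WT testes, against 1.8, 0.96 and 9.02 CPM in E13.5 WT testes (log2 fold change 4.72, SE 0.53, adjusted p = 0.0011). In each of these genes the groups were far apart, and E13.5 WT replicate 3 was the highest of the younger testes. Their log2 fold changes without that library were 5.52 for Piwil4, 7.2 for Spocd1 and 6.23 for Tdrd9.

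Genes of the cytoplasmic arm of the pathway rose as well. Piwil2 encodes MILI, which makes primary piRNAs, and had 132, 172 and 132 CPM in E15.5 WT testes, against 31.8, 39.6 and 67.6 CPM in E13.5 WT testes (log2 fold change 1.65, SE 0.25, adjusted p = 0.0027). Tdrd1, which binds MILI in germ granules, had 78.7, 103 and 80.6 CPM in E15.5 WT testes, against 11.3, 11.3 and 37.1 CPM in E13.5 WT testes (log2 fold change 2.14, SE 0.41, adjusted p = 0.0069). Both encode proteins of the same granules, and both were detected in every E13.5 testis, replicate 3 having the most. Mov10l1, the helicase that feeds precursors into the pathway, had 62.4, 84.1 and 70.8 CPM in E15.5 WT testes, against 19, 18.5 and 44.1 CPM in E13.5 WT testes (log2 fold change 1.41, SE 0.3, adjusted p = 0.011). Morc1, a gene needed for transposon silencing in male germ cells, had 60.5, 77.5 and 58 CPM in E15.5 WT testes, against 4.4, 3.98 and 19.4 CPM in E13.5 WT testes (log2 fold change 2.83, SE 0.49, adjusted p = 0.0048). The testes of the 2 ages did not overlap in any of these 4 genes, and the calls of Tdrd1 and Mov10l1 were lost with a robust dispersion. Gtsf1, a cofactor of PIWI proteins, had 13.1, 20.9 and 8.37 CPM in E15.5 WT testes, against 0.379, 0.229 and 5.42 CPM in E13.5 WT testes (log2 fold change 2.82, SE 0.82, adjusted p = 0.035), with wide spread in both groups, and it was not called by DESeq2 or with a robust dispersion. Piwil1, known mainly from the later spermatocytes and spermatids of the mouse, was also higher, with 12.4, 13 and 10.4 CPM in E15.5 WT testes, against 0.9, 0.869 and 2.83 CPM in E13.5 WT testes (log2 fold change 2.96, SE 0.38, adjusted p = 0.0016).

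Other germ cell genes moved both ways. Of 13 genes expressed in germ cells in general, 5 were higher (38.5%, against 8.32% of all genes) and 2 lower (15.4%, against 3.33%), with a median of 0.54, and without E13.5 WT replicate 3 the counts were 8 and 2. Ddx4, the mouse Vasa gene and a standard marker of germ cells, had 110.2, 149.8 and 81.7 CPM in E15.5 WT testes, against 107, 143 and 176 CPM in E13.5 WT testes and was not called (log2 fold change -0.32, SE 0.23, adjusted p = 0.33), with the 2 ages overlapping. Mael (2.11), Tex15 (1.94) and Brdt (2.37), all known from the male germline, rose by these log2 fold changes, as did Tdrd7 (0.9), a tudor gene named after its values were seen. Rpl10l, a germline copy of a ribosomal protein gene, rose by 1.41, and its reads may be shared with the parent gene. Dazl, an RNA-binding protein that licenses germ cells for sexual differentiation, fell instead, with 86.6, 112 and 51.3 CPM in E15.5 WT testes, against 222, 289.7 and 305 CPM in E13.5 WT testes (log2 fold change -1.71, SE 0.25, adjusted p = 0.0024). Hook1, also named after its values were seen, fell by 0.61 on the log2 scale. Nanos2, the RNA-binding protein that marks male fate in gonocytes, had 7.11, 9.81 and 2.82 CPM in E15.5 WT testes, against 2.7, 0.914 and 16.3 CPM in E13.5 WT testes. Its groups overlapped, with E13.5 WT replicate 3 highest of all 6. The log2 fold change was -0.01 and was not called, and without that library it was 1.88 (adjusted p = 0.031). In whole tissue, fewer cells of a type and less RNA per cell cannot be told apart, and this holds for every gene that marks a cell type here.

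Promoter sequences were available for 15 of the 19 male germ cell genes, from RefSeq on GRCm38.p6. Within 250 bases before a start, 8 of these 15 (53.3%) held the palindrome CACGTG, an E-box that basic helix-loop-helix proteins can bind, against 6.86% of 27025 genes with a promoter and 9.59% of the genes tested here. Of the 8 list members with a promoter that rose, 6 held it. The motif was also in 5 of 11 genes of the general germ cell list (45.5%) and in 4 of 16 of the cholesterol list (25%), so it was not particular to the male germ cell genes. It was in 0 of 12 genes of the pluripotency list, in 0 of 11 of the fetal Leydig list and in 9.96% of all genes called higher. The motif was picked after 15 motifs had been looked at, and a match is a run of letters, not a bound site. The 200 bases before the start are shown for 3 genes that rose, in the direction of transcription, with CACGTG in capitals. For Dnmt3l they lie at chr10:78049642-78049841 on the plus strand, the only 1 of its 3 promoter windows with the motif. For Tdrd9 they lie at chr12:111971359-111971558 and for Tdrd1 at chr19:56826009-56826208, both on the plus strand; the Tdrd1 window shown is 1 of 2 with the motif among 3.
Dnmt3l: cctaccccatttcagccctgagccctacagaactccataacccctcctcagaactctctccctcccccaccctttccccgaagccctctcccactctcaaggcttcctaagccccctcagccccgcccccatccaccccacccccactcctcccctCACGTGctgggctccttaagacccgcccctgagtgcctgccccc
Tdrd9: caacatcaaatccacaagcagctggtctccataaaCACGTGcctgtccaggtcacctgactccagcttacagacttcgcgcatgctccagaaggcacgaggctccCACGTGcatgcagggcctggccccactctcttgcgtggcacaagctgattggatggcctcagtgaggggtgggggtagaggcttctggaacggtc
Tdrd1: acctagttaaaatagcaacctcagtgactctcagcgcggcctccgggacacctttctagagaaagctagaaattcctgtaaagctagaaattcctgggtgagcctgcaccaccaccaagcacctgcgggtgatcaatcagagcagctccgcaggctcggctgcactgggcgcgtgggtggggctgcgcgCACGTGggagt

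**Figure D2:**
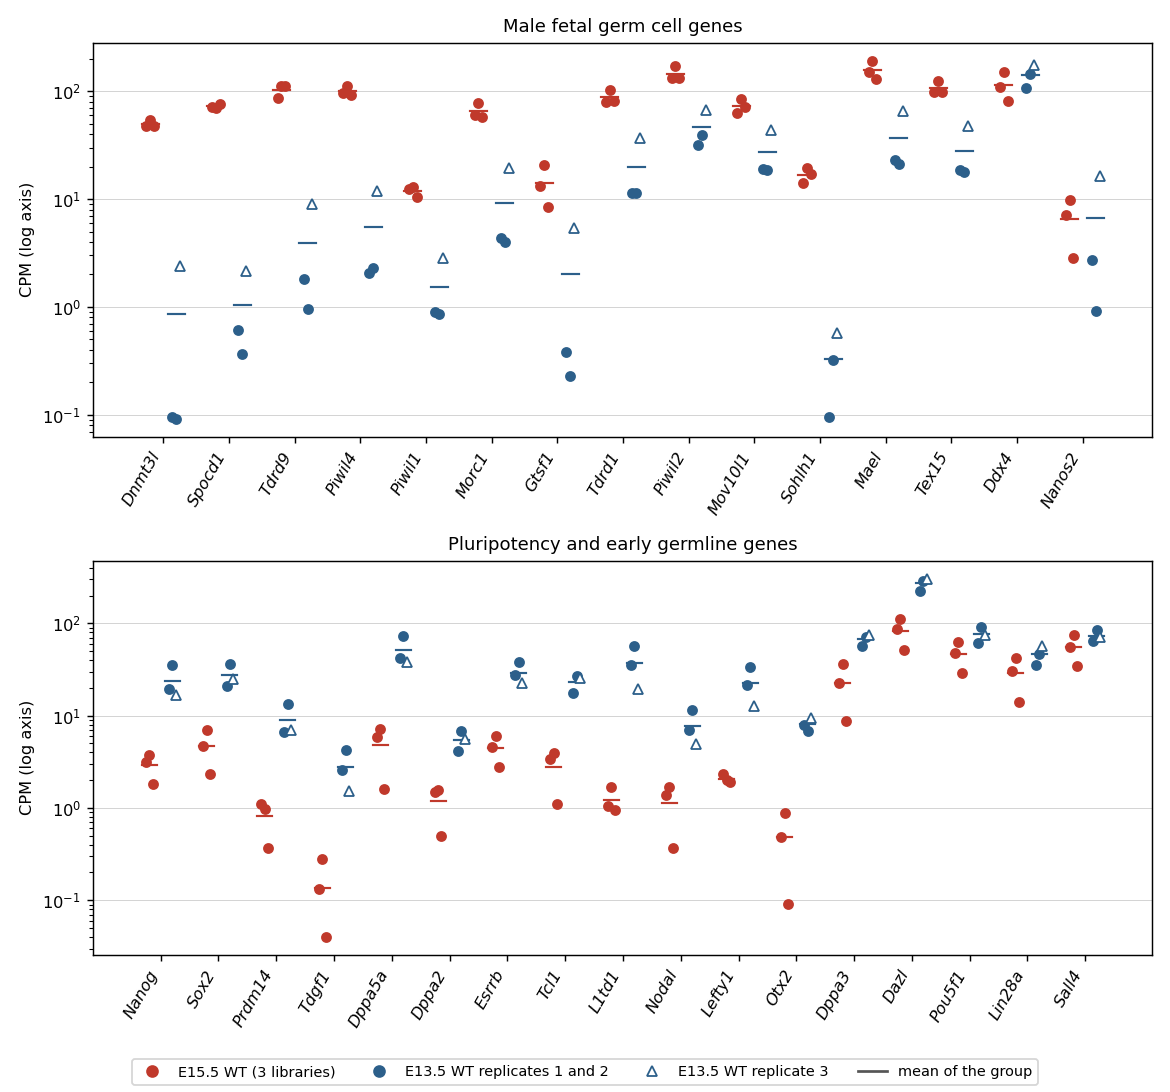
CPM (log axis) of germ cell genes in each WT testis, with E15.5 in red on the left and E13.5 in blue on the right of each gene, the open triangle marking E13.5 replicate 3 and bars marking group means; a value of 0 for Tdgf1 is drawn at the foot of the axis. In the upper panel the older testes lie above the younger ones for all genes but Ddx4 and Nanos2, and in the lower panel they lie below them for Nanog, Sox2 and most others.

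Most genes of pluripotency and the early germline fell. Of 22 genes tested, 17 were lower (77.3%, against 3.33% of all genes) and none was higher, with a median log2 fold change of -1.99. Without E13.5 WT replicate 3, 17 were lower and 1 was higher. The number lower was 14 with a robust dispersion or without E13.5 WT replicate 2, and 13 without E15.5 WT replicate 1 or replicate 3. Nanog, a core pluripotency factor (ENSMUSG00000012396, chromosome 6 from 122707489 to 122714633), had 3.18, 3.7 and 1.82 CPM in E15.5 WT testes, against 19.3, 35 and 16.9 CPM in E13.5 WT testes (log2 fold change -3.03, SE 0.33, adjusted p = 0.0011). Sox2, its partner, had 4.68, 6.99 and 2.32 CPM in E15.5 WT testes, against 20.8, 36.2 and 25.1 CPM in E13.5 WT testes (log2 fold change -2.55, SE 0.34, adjusted p = 0.0018); it lies within a longer transcript, Sox2ot, on the same strand. Prdm14, which protects the state of primordial germ cells, had 1.1, 0.972 and 0.364 CPM in E15.5 WT testes, against 6.63, 13.4 and 7.01 CPM in E13.5 WT testes (log2 fold change -3.46, SE 0.41, adjusted p = 0.0012). In all 3 genes the highest older testis was well below the lowest younger one.

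Pou5f1, the gene of OCT4, was not called. It had 47.7, 62.5 and 28.9 CPM in E15.5 WT testes, against 61.7, 90.1 and 75.2 CPM in E13.5 WT testes (log2 fold change -0.71, SE 0.24, adjusted p = 0.064), and 1 older testis lay within the range of the younger ones. Sall4 and Lin28a, which also belong to this network, were not called either (-0.41 and -0.68 on the log2 scale). Dppa5a (-3.39), Dppa2 (-2.2) and Dppa3 (-1.58), genes first known from pluripotent and early germ cells, all fell. So did Esrrb (-2.71), a nuclear receptor of that network, Tcl1 (-3.06), a cofactor of AKT, Tfap2c (-1.79), which specifies primordial germ cells, Gdf3 (-2.29) and the receptor gene Kit (-0.65). The call of Kit was lost in 6 alternative fits, and those of Dppa3 and Tfap2c in 2 each. Near-identical copies of Dppa5a exist in the genome, so its counts are less certain.

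Several of the fallen genes belong to Nodal signalling, which is active for a short time in male germ cells of the mouse. The ligand gene Nodal had 1.37, 1.67 and 0.364 CPM in E15.5 WT testes, against 7.05, 11.4 and 4.94 CPM in E13.5 WT testes (log2 fold change -2.78, SE 0.46, adjusted p = 0.0042). Tdgf1, its co-receptor Cripto, had 0.133, 0.278 and 0 CPM in E15.5 WT testes, against 2.6, 4.21 and 1.54 CPM in E13.5 WT testes (log2 fold change -4.3, SE 0.66, adjusted p = 0.0029), a low transcript at both ages. Lefty1, an inhibitor that Nodal induces, had 2.34, 1.99 and 1.91 CPM in E15.5 WT testes, against 21.4, 33.8 and 12.7 CPM in E13.5 WT testes (log2 fold change -3.44, SE 0.35, adjusted p = 8.6e-04), and Lefty2 fell less (-0.8). Foxh1, the nuclear partner of this pathway, was among the 15 largest falls, at -4.41. Otx2 (-4.04) and Sox15 (-3.56), transcription factors shared with pluripotent cells, stood among the same 15, as did L1td1 (-4.93), an RNA-binding protein of those cells, and Tdh (-4.83), the threonine dehydrogenase of mouse embryonic stem cells. For L1td1 the values were 1.06, 1.67 and 0.956 CPM in E15.5 WT testes, against 35.7, 57.2 and 19.3 CPM in E13.5 WT testes, with no overlap.

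Meiotic genes did not move as a group. Of 20 tested, 3 were higher (15%, against 8.32% of all genes) and 4 lower (20%, against 3.33%), with a median of 0.08, and without E13.5 WT replicate 3, 6 were higher. Stra8, which opens meiosis in response to retinoic acid, rose but stayed below 1 CPM in all 6 testes, with 0.795, 0.879 and 0.91 CPM in E15.5 WT testes, against 0, 0.0914 and 0.288 CPM in E13.5 WT testes (log2 fold change 2.72, SE 0.63, adjusted p = 0.013). Mei1, a gene of meiotic recombination named after its values were seen, had 33, 23 and 38 counts at E15.5 and 1, 0 and 0 counts at E13.5, so no fold is given. Sycp3 (0.68), Dmc1 (0.45), Rec8 (-0.17) and Sycp1 (-0.86) were not called, and Sycp1 was highest in E13.5 WT replicate 3 with 30.5 CPM. Tex12 (1.2), of the synaptonemal complex, rose, whereas Smc1b (-1.26), a meiotic cohesin, and Syce2 (-0.68) fell, as did Hormad2 (-1.71), a meiotic chromosome axis gene named after its values were seen, and Sohlh2, described next.

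The paired germ cell regulators Sohlh1 and Sohlh2 moved in opposite directions. Sohlh1 had 14.1, 19.3 and 17.1 CPM in E15.5 WT testes, against 0.0947, 0.32 and 0.576 CPM in E13.5 WT testes (log2 fold change 5.65, SE 0.34, adjusted p = 1.1e-04), and Sohlh2 had 2.61, 2.68 and 2.05 CPM in E15.5 WT testes, against 36.6, 47.6 and 30.3 CPM in E13.5 WT testes (log2 fold change -3.96, SE 0.2, adjusted p = 5.5e-05). Both encode basic helix-loop-helix factors that later act together in spermatogonia of the mouse, and the ages overlapped in neither gene. Of 14 genes of retinoic acid metabolism and response, 1 rose and 1 fell (7.14% each, against 8.32% and 3.33% of all genes). Cyp26b1, the enzyme that degrades retinoic acid in the fetal testis, had 109.9, 126 and 109 CPM in E15.5 WT testes, against 268, 272 and 192 CPM in E13.5 WT testes (log2 fold change -1.09, SE 0.13, adjusted p = 0.0013), and the retinol carrier gene Rbp4, named after its values were seen, rose by 1.57. The synthesising enzymes Aldh1a1 (0.14) and Aldh1a2 (-0.31) and the receptor gene Rarb (0.1) were not called.

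Proliferation genes were mostly a little lower without being called. Of 35 tested, 2 were lower (5.71%, against 3.33% of all genes) and none higher, with a median of -0.22, although the older testes lay wholly below the younger ones in 25 genes (71.4%, against 22% of all genes). Ccnb1, the mitotic cyclin, had 60.2, 60.5 and 58 CPM in E15.5 WT testes, against 83.3, 105 and 95.3 CPM in E13.5 WT testes (log2 fold change -0.67, SE 0.09, adjusted p = 0.0016), and Ccne1, the cyclin of entry into DNA synthesis, fell by 0.67 on the log2 scale. Mki67 (0.07), Top2a (-0.28), Pcna (-0.19) and Cdk1 (-0.07) were not called. Of 10 genes that restrain the cell cycle, 2 rose (20%, against 8.32% of all genes) and 3 fell (30%, against 3.33%), and 1 or 2 fell with any library left out. Cdkn2c, which encodes p18, had 20.9, 22.5 and 23.2 CPM in E15.5 WT testes, against 8.71, 6.26 and 12.6 CPM in E13.5 WT testes (log2 fold change 1.27, SE 0.21, adjusted p = 0.004), and Cdkn2a rose by 0.88. Cdkn1c (-0.68), Cdkn1a (-0.79) and Rb1 (-0.61) fell, while Cdkn1b (0.14) and Cdkn2b (0.58) were not called.

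Most genes of developmental timing fell. Of 8 genes of the axis around the let-7 microRNAs, 5 were lower (62.5%, against 3.33% of all genes) and none higher, with a median of -0.68 and every one of the 8 below 0; 2 were called without E15.5 WT replicate 1 and 3 without E13.5 WT replicate 2. Hmga2, a chromatin protein of growing embryonic tissue (ENSMUSG00000056758, chromosome 10 from 120361275 to 120476469), had 101, 113 and 103 CPM in E15.5 WT testes, against 463, 570 and 289 CPM in E13.5 WT testes (log2 fold change -2.06, SE 0.21, adjusted p = 8.6e-04). Igf2bp1, an RNA-binding protein of fetal tissue, had 31.8, 35.7 and 31.8 CPM in E15.5 WT testes, against 83.6, 99.7 and 68.7 CPM in E13.5 WT testes (log2 fold change -1.34, SE 0.13, adjusted p = 6.8e-04). The older testes were similar to each other in both genes, and the younger ones ranged more widely, with E13.5 WT replicate 3 nearest to the older group. Igf2bp3 (-0.63), Lin28b (-0.68), which blocks let-7 maturation, and Trim71 (-0.93), itself a let-7 target, also fell.

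About as many fetal Leydig cell genes rose as were not called. Of 19 tested, 9 were higher (47.4%, against 8.32% of all genes) and 1 was lower (5.26%, against 3.33%), with a median of 0.59. The count moved with how the spread was estimated, since 2 were higher with a robust dispersion and 7 by DESeq2. With 1 library left out it was 4 when replicate 1 of either age was dropped, 5 when the third E15.5 WT testis was, and 11 without E13.5 WT replicate 3. The direction of all 10 called genes was the same in every fit. The order of steroid synthesis serves to describe them. Star, which brings cholesterol into mitochondria, had 501, 496 and 617 CPM in E15.5 WT testes, against 343, 215 and 423 CPM in E13.5 WT testes (log2 fold change 0.72, SE 0.21, adjusted p = 0.036). Cyp11a1, the side-chain cleavage enzyme that makes pregnenolone, had 1657, 1489.8 and 1508 CPM in E15.5 WT testes, against 888, 562 and 1109 CPM in E13.5 WT testes (log2 fold change 0.86, SE 0.2, adjusted p = 0.015). Hsd3b1, the next enzyme, had 904, 822 and 805 CPM in E15.5 WT testes, against 592, 453 and 639 CPM in E13.5 WT testes (log2 fold change 0.59, SE 0.12, adjusted p = 0.0085). Each older testis lay above each younger one in all 3 genes, and E13.5 WT replicate 2 was the lowest. The call of Star was lost in 6 of 15 other fits, that of Cyp11a1 in 3 and that of Hsd3b1 in 2.

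Cyp17a1, which commits steroids to the androgen branch (ENSMUSG00000003555, chromosome 19 from 46667165 to 46673172), had 2631, 2528 and 2665 CPM in E15.5 WT testes, against 1380.3, 855 and 1785 CPM in E13.5 WT testes (log2 fold change 0.96, SE 0.22, adjusted p = 0.013). Insl3, the Leydig hormone of testis descent, had 255, 240 and 200.1 CPM in E15.5 WT testes, against 127, 77.3 and 151 CPM in E13.5 WT testes (log2 fold change 0.97, SE 0.21, adjusted p = 0.011); it overlaps Jak3 on the same strand. Scarb1, a receptor for lipoprotein cholesterol, rose by 0.74, and Ren1, a renin gene active in fetal Leydig cells, by 0.82. The call of Scarb1 held in all 15 other fits, while that of Ren1 was lost in 7 of them. The adrenal-type enzymes Cyp11b1 and Cyp21a1, which fetal Leydig cells of the mouse also express, had the largest rises of the list. Cyp11b1 had 37.3, 39.8 and 51.8 CPM in E15.5 WT testes, against 15.3, 4.94 and 22.6 CPM in E13.5 WT testes (log2 fold change 1.59, SE 0.4, adjusted p = 0.02), and Cyp21a1 had 21.9, 13.1 and 18.3 CPM in E15.5 WT testes, against 6.72, 2.33 and 10.5 CPM in E13.5 WT testes (log2 fold change 1.46, SE 0.42, adjusted p = 0.033). The Cyp21a1 call was lost in 6 other fits, DESeq2 among them, and the Cyp11b1 call in 3.

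Some regulators and hormone receptors of the same cells were not called. Nr5a1, the master steroidogenic factor, had 469, 469 and 474 CPM in E15.5 WT testes, against 465, 453 and 437 CPM in E13.5 WT testes, values that were almost alike in all 6 testes (log2 fold change 0.06, SE 0.05, adjusted p = 0.44). Lhcgr, the luteinizing hormone receptor gene, had 69.4, 75.7 and 83.7 CPM in E15.5 WT testes, against 61.4, 40.5 and 67.2 CPM in E13.5 WT testes (log2 fold change 0.44, SE 0.17, adjusted p = 0.085), and Mc2r, the ACTH receptor gene, stood at -0.26 on the log2 scale. Hsd3b6 fell, with 0.928, 1.2 and 1 CPM in E15.5 WT testes, against 9.09, 13.9 and 3.6 CPM in E13.5 WT testes (log2 fold change -3.08, SE 0.47, adjusted p = 0.0029). It is a close copy of Hsd3b1, so reads may be split between them. Hsd17b3, the enzyme that completes testosterone and is expressed by fetal Sertoli cells in the mouse, had 85.8, 68.2 and 77.1 CPM in E15.5 WT testes, against 56.9, 57.1 and 59.8 CPM in E13.5 WT testes and was not called (log2 fold change 0.41, SE 0.09, adjusted p = 0.0099).

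All 22 genes of cholesterol synthesis and uptake had positive log2 fold changes, from 0.12 to 1.02, with a median of 0.46. Of these, 4 were called higher (18.2%, against 8.32% of all genes; 3 with a robust dispersion), and in 20 the older testes lay wholly above the younger ones (90.9%, against 21.7%). Without E13.5 WT replicate 3, 10 were called. Leaving out E15.5 WT replicate 3 instead gave 2, and without E13.5 WT replicate 2, 1 was. Tm7sf2, a sterol reductase, had 77.7, 69.5 and 72.9 CPM in E15.5 WT testes, against 39.5, 23.3 and 46 CPM in E13.5 WT testes (log2 fold change 1.02, SE 0.2, adjusted p = 0.0081), in a gene that overlaps Vps51. Lss, lanosterol synthase, had 213, 205 and 228 CPM in E15.5 WT testes, against 133, 95 and 164 CPM in E13.5 WT testes (log2 fold change 0.72, SE 0.16, adjusted p = 0.013). Dhcr7, the last step to cholesterol on one branch, had 341, 326 and 347 CPM in E15.5 WT testes, against 226, 166 and 267 CPM in E13.5 WT testes (log2 fold change 0.62, SE 0.14, adjusted p = 0.015). Hsd17b7 rose by 0.6. Hmgcs1 (0.39), an early enzyme, and Sqle (0.33), squalene epoxidase, were not called.

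Of the 16 cholesterol genes with a promoter in RefSeq, 15 (93.8%) held the letters CCAAT on either strand within 250 bases before a start, against 37.5% of all genes with a promoter and 39.8% of those tested. CCAAT is the box that the factor NF-Y binds, and it was picked after the same search. The 4 called genes held it, as did 11 of the 12 not called. The 200 bases before the start are shown for Lss, at chr10:76531405-76531604, and for Hmgcs1, at chr13:119690151-119690350, both on the plus strand, with CCAAT or its reverse complement ATTGG in capitals.
Lss: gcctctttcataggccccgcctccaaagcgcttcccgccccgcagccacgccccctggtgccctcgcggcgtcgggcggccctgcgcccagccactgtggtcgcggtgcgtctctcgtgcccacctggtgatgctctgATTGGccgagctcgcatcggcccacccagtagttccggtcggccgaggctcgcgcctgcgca
Hmgcs1: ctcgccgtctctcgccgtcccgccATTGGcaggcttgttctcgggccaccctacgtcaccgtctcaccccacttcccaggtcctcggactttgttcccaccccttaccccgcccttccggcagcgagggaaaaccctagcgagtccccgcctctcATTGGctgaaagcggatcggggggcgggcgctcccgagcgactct

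**Figure D3:**
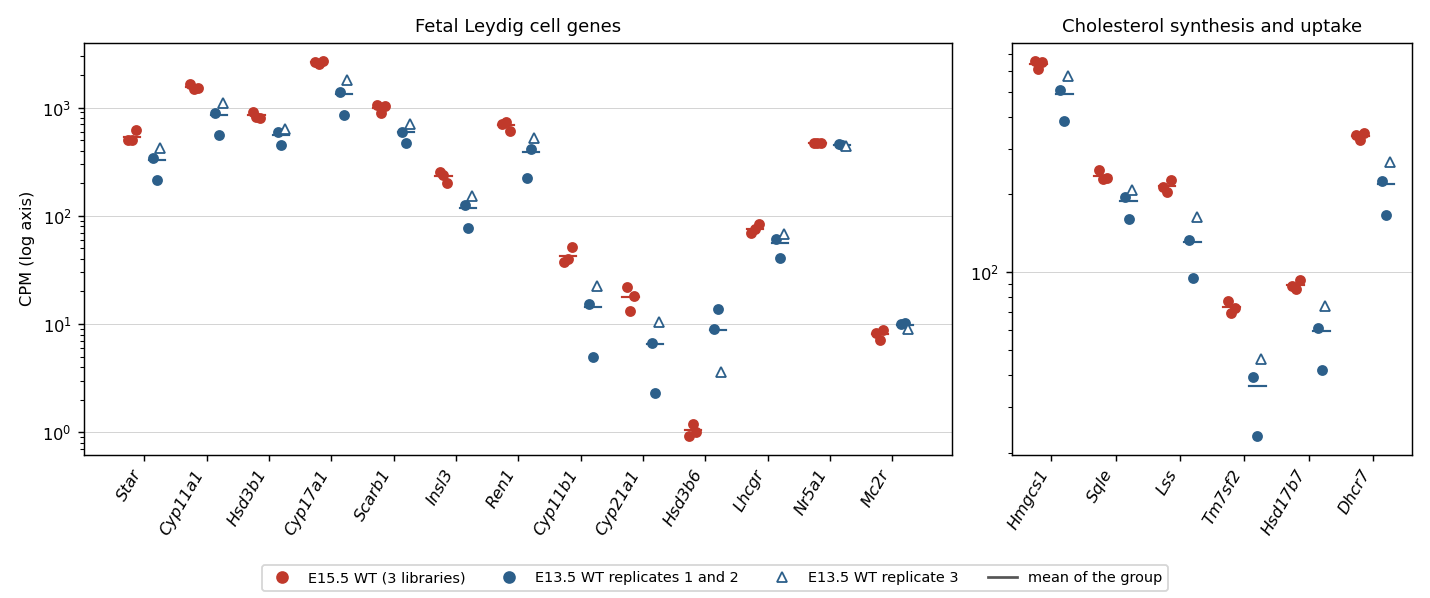
CPM (log axis) of fetal Leydig cell genes (left panel) and of genes of cholesterol synthesis and uptake (right panel) in each WT testis, with E15.5 in red on the left and E13.5 in blue on the right of each gene, the open triangle marking E13.5 replicate 3 and bars marking group means. The older testes are higher by less than 4-fold in the genes that rose, Hsd3b6 is lower, and the 6 values of Nr5a1 lie close together.

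Few Sertoli cell genes were called. Of 24 tested, 2 were higher and 2 lower (8.33% each, against 8.32% and 3.33% of all genes), with a median of -0.05. Fshr, the receptor gene for follicle-stimulating hormone, had 7.91, 9.91 and 9.51 CPM in E15.5 WT testes, against 1.89, 1.6 and 4.75 CPM in E13.5 WT testes (log2 fold change 1.73, SE 0.35, adjusted p = 0.009). Hsd17b1, a steroid dehydrogenase of fetal Sertoli cells, had 111, 93.4 and 99.1 CPM in E15.5 WT testes, against 33.1, 17.8 and 47.6 CPM in E13.5 WT testes (log2 fold change 1.63, SE 0.28, adjusted p = 0.0045). Both were higher in every older testis, and in both E13.5 WT replicate 3 was the highest of its group. Aard, a gene of early Sertoli cells, fell with 162, 156 and 139 CPM in E15.5 WT testes, against 389, 421 and 263 CPM in E13.5 WT testes (log2 fold change -1.23, SE 0.16, adjusted p = 0.0016), and Cldn11, a tight junction gene, with 17.7, 21.1 and 19.7 CPM in E15.5 WT testes, against 46.9, 47 and 31.2 CPM in E13.5 WT testes (log2 fold change -1.1, SE 0.16, adjusted p = 0.0023). The genes that define the cell were lower by less than the fold threshold. Sox9, the factor that sets Sertoli fate, had 106, 99.7 and 117 CPM in E15.5 WT testes, against 155, 150.1 and 117 CPM in E13.5 WT testes (log2 fold change -0.39, SE 0.11, adjusted p = 0.029), and Amh had log2 fold change -0.26. Dhh (-0.29), Cst9 (-0.43), Ptgds (-0.18) and Dmrt1 (-0.4) were also not called. Among 11 genes known from sex determination, 1 fell (9.09%, against 3.33% of all genes), namely Six4, by 1.39 on the log2 scale. Gata4 (-0.09), Lhx9 (0.02), Emx2 (-0.58) and Tcf21 (0.22) were not called.

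In the activin and inhibin family, which the mutant line of the series addresses, 3 of 25 genes were higher and 3 lower (12% each, against 8.32% and 3.33% of all genes), with a median of 0.005. With 1 library left out, 2 to 4 were higher and 0 to 3 lower, with none lower without E13.5 WT replicate 2. Inhba, whose product forms activin A in fetal Leydig cells, had 52.4, 53.3 and 61.2 CPM in E15.5 WT testes, against 27.3, 15.7 and 34.1 CPM in E13.5 WT testes (log2 fold change 1.12, SE 0.23, adjusted p = 0.0088). The antagonists Fstl3 and Fst, which bind activin, were higher too. Fstl3 had 4.95, 4.44 and 5.28 CPM in E15.5 WT testes, against 1.85, 2.38 and 1.92 CPM in E13.5 WT testes (log2 fold change 1.25, SE 0.18, adjusted p = 0.0024), and Fst had 3.58, 3.33 and 3.55 CPM in E15.5 WT testes, against 2.46, 1.42 and 2.11 CPM in E13.5 WT testes (log2 fold change 0.8, SE 0.22, adjusted p = 0.03). Inha was higher in all 3 older testes by 0.55 on the log2 scale (SE 0.1, adjusted p = 0.0049), and was short of the fold threshold. Inhbb, the other beta subunit, was not called (0.11). Among receptors and related ligands, Acvr2b (-0.61), Amhr2 (-0.6) and Bmp7 (-0.59) fell by values close to the threshold, and the Bmp7 call was lost in 6 of 9 alternative fits of the 6 libraries or more. Tgfbr3 (-0.1), Tgfb2 (0.04) and Bmp4 (0.25) were not called.

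Few genes of other signalling lists were called. Of 9 Hedgehog genes, 1 was lower (11.1%, against 3.33% of all genes) and none higher. This was Hhip, lower by 0.62 on the log2 scale, and the call was lost with a stricter filter and with the 9 WT libraries in one model. The Hedgehog targets Gli1 (0.21) and Ptch1 (-0.07) were not called. Of 11 Notch genes, 1 fell (9.09%, against 3.33% of all genes), namely Hey1 (-0.77), while Hes1 (-0.07) and Heyl (0.24) were not called. Of 12 genes of the ovarian and Wnt pathways, 2 fell (16.7%, against 3.33% of all genes) and none rose. Dkk1, a secreted Wnt inhibitor, had 2.12, 2.36 and 1.55 CPM in E15.5 WT testes, against 17.5, 23.7 and 7.05 CPM in E13.5 WT testes (log2 fold change -3, SE 0.42, adjusted p = 0.0022), and Lgr5 fell by 0.59, a call that was also lost in 6 of these 9 fits. Wnt4 (0.43), Rspo1 (-0.11) and Lef1 (-0.45) were not called.

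About as many genes of the interstitial matrix rose as were not called. Of 15 tested, 8 were higher (53.3%, against 8.32% of all genes) and none lower, with a median of 0.70, and 12 were higher without E13.5 WT replicate 3. The number higher was 10 without E15.5 WT replicate 1 and 6 without E13.5 WT replicate 1. It was 7 with a robust dispersion, without E15.5 WT replicate 3 or without E13.5 WT replicate 2. Eln, which encodes elastin, had 486, 456 and 499.9 CPM in E15.5 WT testes, against 162, 124 and 228 CPM in E13.5 WT testes (log2 fold change 1.49, SE 0.18, adjusted p = 0.0015). Col1a1, of collagen I, had 3798, 5181 and 4939.6 CPM in E15.5 WT testes, against 1890.2, 1597 and 2975 CPM in E13.5 WT testes (log2 fold change 1.11, SE 0.22, adjusted p = 0.0077). Dcn, the proteoglycan decorin, had 507, 505 and 511 CPM in E15.5 WT testes, against 214, 141 and 335 CPM in E13.5 WT testes (log2 fold change 1.14, SE 0.25, adjusted p = 0.012). E13.5 WT replicate 3 was the highest younger testis in each. Ogn (1.68), Col6a2 (0.93), Col6a1 (0.81), Col1a2 (0.8) and Col3a1 (0.7) also rose, whereas Lum (0.62) and Postn (0.15) were not called. The call of Col3a1 was lost in 3 alternative fits and that of Dcn in 2. In the basement membrane list 2 of 16 rose (12.5%, against 8.32%; 4 without E13.5 WT replicate 3 or E15.5 WT replicate 1, and 1 without replicate 2 or 3 of E15.5 WT), Lama2 (1.22) and Col4a4 (0.76), and the main cord components Lama1 (-0.08) and Col4a1 (0.01) were not called.

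Contractile genes of peritubular myoid cells rose in 4 of 10 cases (40%, against 8.32% of all genes), and in 2 without E13.5 WT replicate 1. Myh11, smooth muscle myosin, had 53.9, 78 and 85.6 CPM in E15.5 WT testes, against 33.8, 22.8 and 46.3 CPM in E13.5 WT testes (log2 fold change 1.08, SE 0.25, adjusted p = 0.014), and Tagln had 87, 88.7 and 94.7 CPM in E15.5 WT testes, against 46.8, 31.5 and 61 CPM in E13.5 WT testes (log2 fold change 0.96, SE 0.19, adjusted p = 0.0085). Cnn1 (1.27) and Lmod1 (1.16) rose too, and these calls except that of Myh11 were lost with the 17 libraries in one model, while all 4 were lost with the 9 WT libraries in one model. Acta2 (0.49) and Des (0.17) were not called. Of 21 genes of interstitial progenitors and stroma, 5 rose (23.8%, against 8.32% of all genes) and 1 fell (4.76%, against 3.33%). Without E13.5 WT replicate 1, 3 rose. In the main fit, 4 of the 5 are the collagen and decorin genes already described. The fifth was Igf1, a growth factor gene, with 163, 170.3 and 181 CPM in E15.5 WT testes, against 76.9, 57.1 and 107 CPM in E13.5 WT testes (log2 fold change 1.09, SE 0.19, adjusted p = 0.0045), and Nr2f1 fell by 0.62. The progenitor factor Nr2f2 (-0.07) was not called, nor were Pdgfra (0.42) and Dlk1 (0.54).

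Of 10 genes of nuclear hormone receptors and androgen action, 3 rose (30%, against 8.32% of all genes) and 1 fell (10%, against 3.33%). Esr1, estrogen receptor alpha, had 30.3, 35.2 and 34.3 CPM in E15.5 WT testes, against 19.5, 13.3 and 22.3 CPM in E13.5 WT testes (log2 fold change 0.86, SE 0.17, adjusted p = 0.0074). Thrb, a thyroid hormone receptor gene, rose by 0.99. No older testis lay within the younger range in these genes. Rxfp2, the membrane receptor gene for INSL3, fell by 0.68 with overlapping groups. Its call was lost in 8 of 14 other fits, among them 2 other scalings and the models of 17 and of 9 libraries. Nr3c1 (0.3), the glucocorticoid receptor gene, and Srd5a1 (0.33) were not called.

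**Figure D4:**
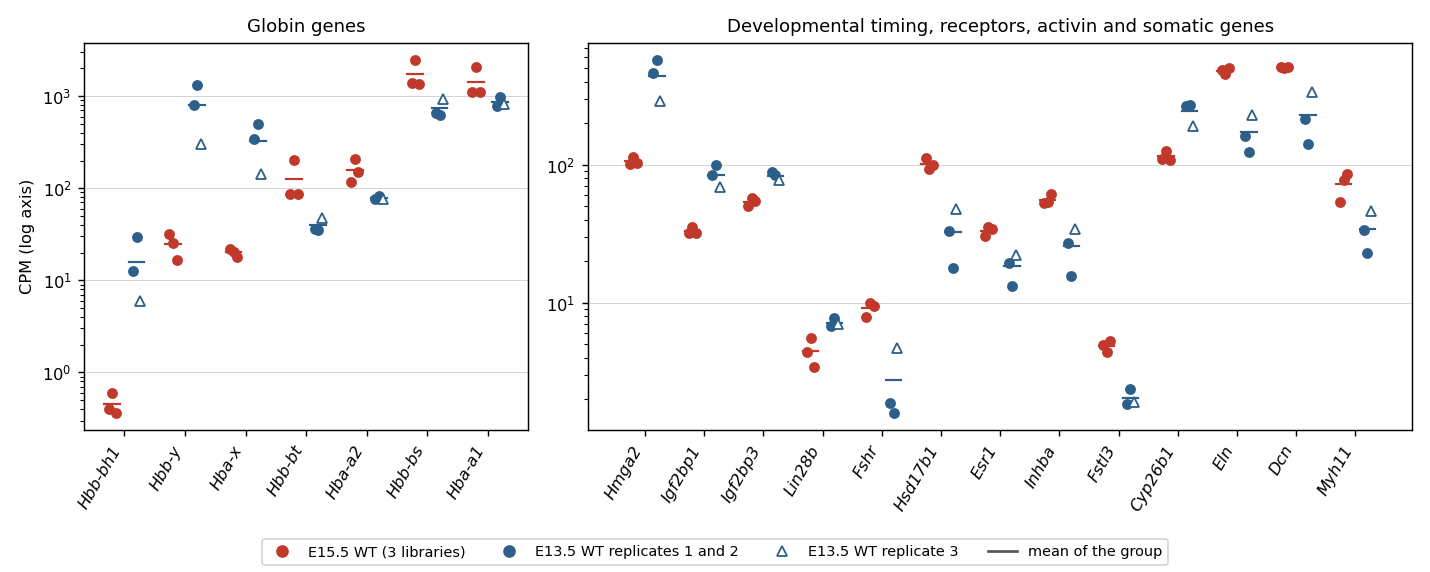
CPM (log axis) of globin genes (left panel) and of genes of developmental timing, receptors, activin signalling, matrix and contraction (right panel) in each WT testis, with E15.5 in red on the left and E13.5 in blue on the right of each gene, the open triangle marking E13.5 replicate 3 and bars marking group means. The embryonic globins Hbb-bh1, Hbb-y and Hba-x and the timing genes are lower at E15.5, and Fshr, Hsd17b1, Esr1, Inhba, Fstl3, Eln, Dcn and Myh11 are higher.

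Transcripts of red blood cells changed between the ages, with embryonic globins lower and adult-type globins higher. The embryonic Hbb-y had 32.2, 25.4 and 16.5 CPM in E15.5 WT testes, against 795, 1315 and 303 CPM in E13.5 WT testes (log2 fold change -5.03, SE 0.53, adjusted p = 8.9e-04), and Hbb-bh1 (-5.12) and Hba-x (-4.01) fell as well. The adult-type Hbb-bs had 1407, 2451 and 1357 CPM in E15.5 WT testes, against 654, 632 and 936 CPM in E13.5 WT testes (log2 fold change 1.23, SE 0.24, adjusted p = 0.0074). Hbb-bt (1.65) and Hba-a2 (1.01) rose too, as did Alas2 (1.06), the first enzyme of heme synthesis in red cells. Of 12 red cell genes tested, 4 rose (33.3%, against 8.32% of all genes) and 3 fell (25%, against 3.33%). With a robust dispersion 2 rose, the calls of Hbb-bt and Alas2 being lost. The Alas2 call was also lost without E13.5 WT replicate 1. Hba-a1 was not called (0.73), and the adult alpha genes and the adult beta genes are close copies that may share reads.

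Markers of vessels and immune cells were mostly not called. Of 17 endothelial genes, 1 rose and 1 fell (5.88% each, against 8.32% and 3.33% of all genes). Vwf rose (0.91) and Emcn fell (-0.69), and Pecam1 (-0.39), Cdh5 (0.2), Kdr (-0.13) and Plvap (-0.26) were not called. Of 14 macrophage and leukocyte genes, 1 rose (7.14%, against 8.32% of all genes), namely Lyz2 (1.32). Its call was lost with a robust dispersion, and without E15.5 WT replicate 1, E15.5 WT replicate 3 or E13.5 WT replicate 1. Csf1r (0.01), Adgre1 (-0.09) and C1qa (-0.18) were not called. Of 6 genes of glia and neurons tested, 1 fell (16.7%, against 3.33% of all genes) and none rose, with a median of 0.32. The gene that fell was Sox10, of glia, with 17.1 ± 1.64 CPM in E15.5 WT testes, against 36.2 ± 8.76 CPM in E13.5 WT testes (SD, n = 3 each), a log2 difference of -1.08. Tubb3 (0.69) was not called. The 8 listed genes of mesonephros and duct, 7 of them tested, summed to between 23.1 and 29.4 CPM at E15.5, against 37.8 to 62.8 CPM at E13.5. Without Lhx1 the sums were 22 to 28.4 CPM at E15.5, against 20.9 to 43 CPM at E13.5, and overlapped. Lhx1 had 1.02, 1.11 and 0.455 CPM in E15.5 WT testes, against 16.9, 26.2 and 20 CPM in E13.5 WT testes (log2 fold change -4.6, SE 0.28, adjusted p = 1.1e-04), and it also stands in the male germ cell list. Gata3, named after its values were seen, fell by 0.96 on the log2 scale, and its call was lost in 6 of 14 other fits. Lhx1 and Gata3 were the 2 of 7 tested mesonephros and duct genes that were lower (28.6%, against 3.33% of all genes). None of the 7 was higher, and Pax2 (0.66) and Pax8 (0.21) were not called. Of 6 genes of the coelomic epithelium, 1 rose (16.7%, against 8.32% of all genes) and none fell, with a median of -0.11. The surface gene Msln rose by 2.79, at 2.73 to 3.27 CPM in E15.5 WT testes, against 0.32 to 0.624 CPM in E13.5 WT testes. Its call was lost with the 17 libraries in one model and with the 9 WT libraries in one model. Upk3b was not called (-0.29).

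Of 18 imprinted genes, 1 rose (5.56%, against 8.32% of all genes; 3 without E13.5 WT replicate 3) and 3 fell (16.7%, against 3.33%). Phlda2, a growth restrainer of the placenta named after its values were seen, rose by 2.16 at 1.32 to 1.68 CPM in E15.5 WT testes, against 0.192 to 0.594 CPM in E13.5 WT testes. Those that fell were Snrpn (-1.05), Peg10 (-0.75) and Cdkn1c, already given. The growth genes H19 (-0.41) and Igf2 (-0.46) and Nnat (-0.43) and Meg3 (0.36) were not called. Among 9 genes of the DNA methylation machinery, 1 rose and 1 fell (11.1% each, against 8.32% and 3.33% of all genes). Dnmt3l rose and Tet1, which oxidises methylated cytosine, fell, with 27.8, 36.4 and 37.5 CPM in E15.5 WT testes, against 83.3, 78 and 72.8 CPM in E13.5 WT testes (log2 fold change -1.2, SE 0.11, adjusted p = 6.7e-04). Dnmt3a, the partner of Dnmt3l, had 378, 444 and 417 CPM in E15.5 WT testes, against 345, 298 and 329 CPM in E13.5 WT testes, higher in every older testis but short of the fold threshold (log2 fold change 0.35, SE 0.08, adjusted p = 0.014), and Dnmt1 (-0.36), Dnmt3b (-0.35) and Uhrf1 (-0.06) were not called. Of 10 genes of the immediate early and heat shock response, 1 fell (10%, against 3.33% of all genes), namely Dusp1 (-0.7). Without E13.5 WT replicate 3, 4 were lower and 1 higher, and none was called without any one of the E15.5 WT testes or E13.5 WT replicate 2. Fos reached 33.7 CPM in E13.5 WT replicate 2 and at most 2.64 CPM in the other testes (-2.66, not called), and Egr1 (0.14) and Hspa1a (0.39) were not called.

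The 15 largest rises held other genes beside those of the germline. Dpep3, a dipeptidase gene known from testis, had 10.8, 11.1 and 12.7 CPM in E15.5 WT testes, against 0, 0 and 0.624 CPM in E13.5 WT testes, and Nlrp4f, of a family expressed in germ cells, had 5.61, 6.2 and 5.28 CPM in E15.5 WT testes, against 0.0473, 0 and 0.336 CPM in E13.5 WT testes. Gucy2c, a guanylate cyclase receptor gene, had 5.92, 5.79 and 6.55 CPM in E15.5 WT testes, against 0.0947, 0.0457 and 0.24 CPM in E13.5 WT testes (log2 fold change 5.54, SE 0.35, adjusted p = 1.1e-04). Rspo4, an R-spondin, rose by 5.09, Dscaml1, an adhesion molecule gene, by 4.55, and the uncharacterised Gm7534 by 4.46. Among the 15 largest falls, Ap3b2, a subunit of a vesicle adaptor, had 3.49, 3.98 and 2.23 CPM in E15.5 WT testes, against 39.2, 65.6 and 35.2 CPM in E13.5 WT testes (log2 fold change -3.85, SE 0.29, adjusted p = 2.9e-04), and Col9a1, of collagen IX, had 0.751, 0.787 and 0.501 CPM in E15.5 WT testes, against 9.75, 16.2 and 4.08 CPM in E13.5 WT testes.

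In 4 of the 15 largest rises, the level did not follow age once the other testes of the series were read. Rpl29, a ribosomal protein gene, had 155, 159.7 and 155 CPM in E15.5 WT testes, against 1.89, 2.42 and 1.82 CPM in E13.5 WT testes, but on the scale of all 17 libraries it stood at 2.69 and 178 CPM in the E13.5 KO testes and at 328, 354 and 1.14 CPM in the PND 0 KO testes. Gm10709 followed the same pattern, with 0.137 and 10.2 CPM in the E13.5 KO testes. The pseudogene Rps13-ps2 had 33.9, 37.8 and 19.5 CPM in E15.5 WT testes, against 0.142, 0.137 and 0.288 CPM in E13.5 WT testes, and 0.363, 18.8 and 0.178 CPM in the E15.5 KO testes. Trim12a had 143, 286 and 137 counts in the E15.5 WT testes, against 0, 1 and 0 counts in the E13.5 WT testes, so no fold is given, and 4.42 and 0 CPM in the E13.5 KO testes. These genes have close copies in the genome, so their reads may be split among them. The reason was not tested.

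In most Leydig and cholesterol genes the age change was lower in WT than in KO testes. The change from E13.5 to E15.5 in WT minus that in KO was tested in one model of 17 libraries, with 2 KO testes at E13.5, and 279 of 18635 genes were called (1.5%), 22 with the WT change above and 257 with it below (1.38% of all tested). It was 154 without E13.5 KO replicate 1 and 138 without replicate 2. Without the E15.5 WT and E15.5 KO testes whose titles share a number, it was 143. In the Leydig list 15 of 19 genes had a WT change below that of KO (median of the difference -2.4 on the log2 scale), in the cholesterol list 19 of 22 (median -1.03) and in the Sertoli list 5 of 24. Enzymes from both pathways show the pattern. Cyp17a1 had 2589 ± 72.4 CPM at E15.5 and 1326 ± 468 CPM at E13.5 in WT testes (SD, n = 3 each), against 2297 ± 158 CPM at E15.5 and 59.5 ± 12 CPM at E13.5 in KO testes (SD, n = 3 and n = 2) (difference of the log2 changes -4.3, SE 0.418, adjusted p = 1.6e-05). Cyp11a1 had 1540.1 ± 85.6 CPM at E15.5 and 844 ± 276 CPM at E13.5 in WT testes (SD, n = 3 each), against 1805 ± 109.9 CPM at E15.5 and 21.1 ± 4.32 CPM at E13.5 in KO testes (SD, n = 3 and n = 2) (difference -5.55, SE 0.442, adjusted p = 2.1e-06). Lss had 214 ± 12.2 CPM at E15.5 and 129 ± 34.9 CPM at E13.5 in WT testes (SD, n = 3 each), against 194 ± 15.4 CPM at E15.5 and 34.4 ± 2.66 CPM at E13.5 in KO testes (SD, n = 3 and n = 2) (difference -1.77, SE 0.217, adjusted p = 2.1e-04). The genotypes were close at E15.5 and far apart at E13.5 in these genes, but not every Leydig gene was close at E15.5. At that age Star had 496, 492 and 615 CPM in WT testes, against 247, 303 and 269 CPM in KO testes. Cyp11b1, not called in this test, had means of 42.7 CPM in WT and 2.47 CPM in KO testes at E15.5.

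No gene of the germ cell lists was called in this test. The median SE of the difference was 0.69 in the male germ cell list and 0.48 in the pluripotency list, and a p that misses the threshold does not show that the changes were alike. Dnmt3l had 49.3 ± 4.16 CPM at E15.5 and 0.854 ± 1.32 CPM at E13.5 in WT testes (SD, n = 3 each), against 28.4 ± 24.4 CPM at E15.5 and 0.182 ± 0.000273 CPM at E13.5 in KO testes (SD, n = 3 and n = 2) (difference -1.37, SE 1.87, adjusted p = 0.84). Nanog had 2.88 ± 0.96 CPM at E15.5 and 23.4 ± 9.49 CPM at E13.5 in WT testes (SD, n = 3 each), against 3.38 ± 1.34 CPM at E15.5 and 27.4 ± 5.33 CPM at E13.5 in KO testes (SD, n = 3 and n = 2) (difference -0.00212, SE 0.454, adjusted p = 1). The KO testes at E15.5 varied more than the WT testes in Dnmt3l.

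**Figure D5:**
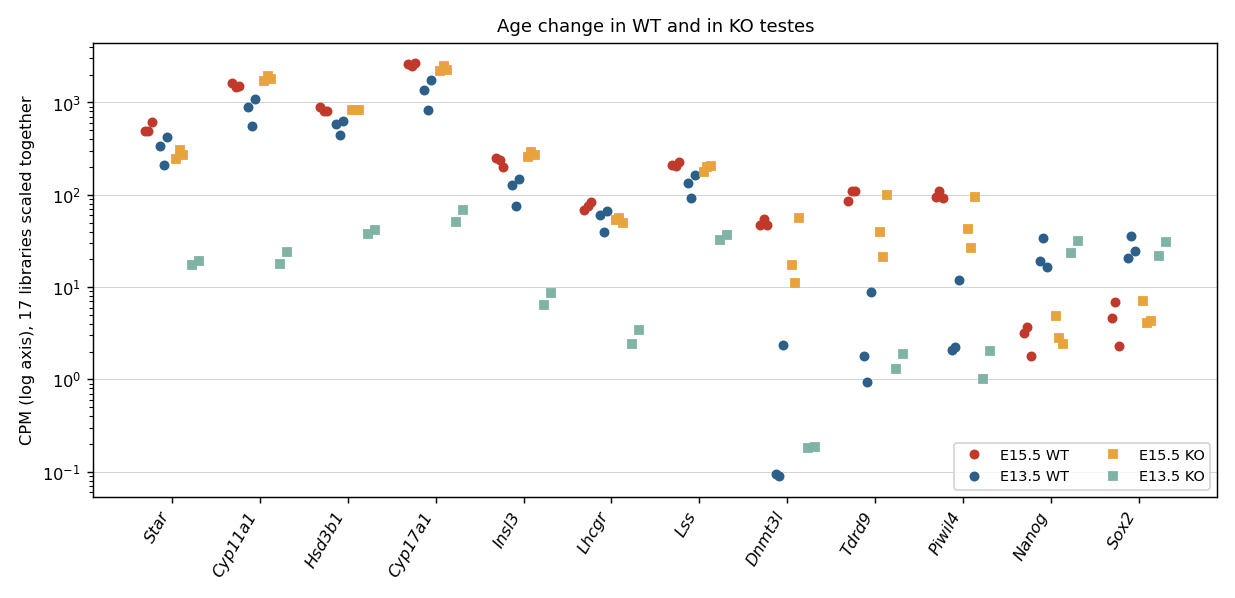
CPM (log axis, 17 libraries scaled together) of Leydig, cholesterol and germ cell genes, 1 point per testis, with E15.5 WT, E13.5 WT, E15.5 KO and E13.5 KO from left to right for each gene. In the genes from Star to Lss the E13.5 KO testes lie far below the other 3 groups, while in Dnmt3l, Tdrd9, Piwil4, Nanog and Sox2 both genotypes move the same way between the ages.

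The WT testes of PND 0 show where these levels stood later, on the scale of all 17 libraries. Dnmt3l had 0.854 ± 1.32 CPM at E13.5, 49.3 ± 4.16 CPM at E15.5 and 9.63 ± 1.02 CPM at PND 0 (SD, n = 3 each). Piwil4 had 5.42 ± 5.65 CPM at E13.5, 99.1 ± 10.2 CPM at E15.5 and 8.68 ± 2.62 CPM at PND 0 (SD, n = 3 each). Both had their highest mean at E15.5 among the 3 ages sampled, and so did Tdrd9 and Spocd1, with 33.3 ± 7.58 and 23 ± 6 CPM at PND 0. Nanog had 23.4 ± 9.49 CPM at E13.5, 2.88 ± 0.96 CPM at E15.5 and 0.972 ± 0.103 CPM at PND 0 (SD, n = 3 each), and Hmga2 had 435 ± 138 CPM at E13.5, 105 ± 6.46 CPM at E15.5 and 6.23 ± 0.659 CPM at PND 0 (SD, n = 3 each), so both were lowest at PND 0. Fshr had 2.72 ± 1.73 CPM at E13.5, 9.05 ± 1.08 CPM at E15.5 and 36.4 ± 4.68 CPM at PND 0 (SD, n = 3 each), with the highest mean at PND 0. Cyp17a1 had 1326 ± 468 CPM at E13.5, 2589 ± 72.4 CPM at E15.5 and 379 ± 164 CPM at PND 0 (SD, n = 3 each), with the highest mean at E15.5. These means are given without a test between E15.5 and PND 0.

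Because the strand setting of the counting is not given in the sources used here, reads of a gene and of an overlapping gene on the other strand cannot be told apart. Of 223 named genes, 40 overlap another annotated gene, 33 of them on the opposite strand, among these Dnmt3l, Hmga2, Igf2bp1, Cyp11b1, Nr5a1, Eln, Ogn and Tagln.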

How the data were processed

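RNA sequencing of 17 whole testes was analysed, of which the 6 WT testes of E15.5 and E13.5 (3 each) form the comparison. The authors removed poor reads with SOAPnuke, used RNAsik to run STAR on GRCm38 and took counts per gene from featureCounts, and the submitters' processing notes also name limma. The deposited table holds whole-number counts for 19110 genes in 17 columns, with 21020002 to 22042380 counts in the 6 WT libraries. Each gene has at least 11 counts in 1 library or more, and rarer genes are not analysed here. A total of 24 gene names written as dates were restored by identifier, and 19028 genes were placed in GENCODE vM21. Groups follow the titles, against the genotype field for the E15.5 WT samples.

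Counts of the 6 libraries were filtered with filterByExpr (2026 genes removed), normalised with TMM factors and fitted by the quasi-likelihood test of edgeR (4.0.16, R 4.3.3), with p-values adjusted over all 17084 genes after Benjamini and Hochberg. Calls required an adjusted p below 0.05 with at least a 1.5-fold difference. CPM values are scaled by TMM, except those of Alb and the sums of the mesonephros and duct list, which use library totals alone. List counts are read against the share of all genes called. The difference of the age change between WT and KO was tested in one model of 17 libraries. Libraries of an age differed by more than sampling noise (chi-square per gene 8.12 to 18.2). The members and the 30 gene lists were chosen with earlier results of these data known.

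Named genes are core members of the lists, the 15 largest rises and falls whose ages do not overlap and whose higher age averages 5 CPM or more, and up to 4 further called genes per list; a few others are marked as chosen after their values were seen, and some genes the rule names are not reported here. Of 438 list genes, 432 were in the table. Alternatives were DESeq2 (1.42.0), limma voom (3.58.1), library sizes alone, RLE factors, a robust dispersion, all genes kept, a stricter filter (10 CPM in 3 libraries), models of 17 or 9 libraries, other thresholds, glmTreat and each library left out. On simulated counts for this comparison over 17084 genes, the test found 33 of 67 genes altered 1.5-fold, 56 of 67 altered 2-fold and 66 of 66 altered 4-fold, and 4 of its 159 calls were false. Promoters were taken from RefSeq (GRCm38.p6), where 155 of 223 named genes had one. Both strands were searched, in 250 bases before each start, for 15 motifs: the E-box CACGTG and its longer forms TCACGTG as well as TCACGTGA, which contain it; the E2F-type TTCCCGC, its longer form TTTCCCGC, besides the related GGCGGGAA; the nuclear receptor site AGGTCA, within the longer CAAGGTCA, itself a case of CAAGGNCA; the octamer ATGCAAAT; the joint OCT4-SOX2 motif, the androgen response element, the box CCAAT, the box TATAAA, and the run GGGNGGGG. They were chosen after results were seen.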

Additional observations from a re-analysis of the deposited data

Results flagged for a closer look

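The change from E13.5 to E15.5 differed between WT and KO testes in 21 of the genes named above, by a direct test of the difference in edgeR. In all 21 the WT change was the lower one, and values are the WT log2 change minus the KO log2 change. Only 2 KO testes of E13.5 enter this test.

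In fetal Leydig cell genes the differences were -5.55 for Cyp11a1, -4.3 for Cyp17a1, -4.21 for Insl3, -3.79 for Hsd3b1, -3.73 for Lhcgr, -3.18 for Star, -2.57 for Ren1, -1.97 for Scarb1, -1.35 for Mc2r and -0.64 for Nr5a1. Lhcgr, Mc2r and Nr5a1 were not called between the ages in WT. In cholesterol genes they were -2.0 for Tm7sf2, -1.77 for Lss, -1.59 for Dhcr7, -1.57 for Hsd17b7, -1.02 for Hmgcs1 and -0.81 for Sqle. Among the remaining genes they were -1.7 for Hspa1a, -1.41 for Inhba, -1.33 for Thrb, -0.84 for Aldh1a1 and -0.69 for Cst9.

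Of the 278 genes called in this test that were also tested between the WT ages, 72 were called there, 62 higher and 10 lower at E15.5. Among all genes tested between the WT ages, 11.6% were called, 8.32% higher and 3.33% lower. Both tests use the same 6 WT libraries, so this overlap is not independent.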

How the results depend on the processing

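Of 1990 called genes, none changed direction in any of 15 refits. The number called was 4371 (2333 higher, 2038 lower) at adjusted p alone, 1202 (921 and 281) at 2-fold, 705 (553 and 152) at an absolute log2 fold change over 1.5, 688 (529 and 159) with glmTreat and 719 (495 and 224) with the stricter filter, which tested 10951 genes. The remaining fits of all libraries gave 1860 to 2223. With 1 library left out it was 1559 to 2585, with 1083 to 1857 higher and 413 to 728 lower. Of 138 named genes called, 87 were called in every refit, 36 lost the call in a refit that kept all 6 libraries and 15 with a library left out alone; of 81 not called, 14 gained a call and 10 changed sign. Nanos2 was 0.78 by limma voom and 0.00614 with library sizes alone. With a library left out, log2 fold changes ranged from -0.531 to 1.88 for Nanos2, -0.286 to 0.162 for Adgre1, -0.0844 to 0.136 for Col4a1, -0.075 to 0.0853 for Csf1r, -0.217 to 0.708 for Egr1, -3.17 to 0.19 for Fos, -0.103 to 0.371 for Foxl2, -0.16 to 0.0631 for Lama1, -0.0326 to 0.082 for Lhx9 and -0.0481 to 0.24 for Mki67. The difference between WT and KO changes gave 138 to 370 genes with 1 library left out, with 154 and 138 without replicate 1 or 2 of the E13.5 KO testes, which leaves 1 such testis, assumed to vary like the others. Leaving out both E15.5 testes whose titles share a number, a choice made after seeing the data, gave 143. The cause of these moves was not tested. No paired analysis was possible because the WT groups of the 2 ages share no number in their labels. On simulated counts 33 of 67 genes altered 1.5-fold were found. A call needs an estimated change of at least 1.5-fold, so genes of exactly that size can fall on either side of the threshold. This share therefore does not show whether changes near that size are under-counted. The simulated counts followed a dispersion trend and included no library that stood apart.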
